A study of Mus musculus with 8 samples.

Results

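Interferon-stimulated and antiviral genes were followed in mouse embryonic stem (mES) cells with and without Trim71, an RNA-binding ubiquitin ligase. The genes were taken by symbol from a list of 9, namely Rsad2, Oasl2, Isg15, Stat2, Irf1, Irf3, Irf9, Bst2 and Ifih1, and 7 of them were analysed among 13558 transcripts. Isg15 and Ifih1 were not analysed here. Rsad2 and Oasl2 were put on the list because they were among the largest rises and falls between the genotypes, that is, they were chosen by the deposited values compared between KO and WT cells. That difference is therefore given for all members as a description, without a test.

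The data were mRNA-seq values of 4 KO libraries (Trim71-/-) and 4 WT libraries (conditional Trim71 fl/fl). Per the labels, all cells were male C57BL/6 mES cells grown in serum with LIF and sorted for SSEA-1, and KO cells had received 500 nM 4-hydroxytamoxifen for 2 days followed by at least 7 days of culture. Per the study's methods, the lines also carried the Cre-ERT2 recombinase at the Rosa26 locus, control cells received the solvent, and Cre removes exon 4 of Trim71, so the other exons are still transcribed. Clone E3 gave 3 KO and 2 WT libraries and clone 1 gave 1 KO and 2 WT libraries. KO replicates 1 to 4 carried days 2, 3, 4 and 5 and WT replicates 1 to 4 days 1, 3, 4 and 5, where the labels give the day without saying what it counts from. The recovered depth was 6833482 to 25441811 reads per library, and nothing says that libraries of 1 clone came from separate cultures beyond the day, so p-values measure the spread between these libraries.

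Deposited Trim71 values lay between 246.9 and 792.9 in KO and between 1988 and 2782 in WT libraries (exact two-sided permutation test, p = 0.0286, the smallest that 70 assignments allow). All 10 embryonic stem cell markers were measured, and their summed deposited values were 69180 to 94730 in KO and 64130 to 83690 in WT. For fibroblast markers, 7 of 12 were measured, with sums of 188.8 to 322.0 in KO and 162.3 to 307.3 in WT. For immune cell markers, 5 of 12 were measured, among them Ptprc and Csf1r, with sums of 503.5 to 571.0 in KO and 287.1 to 646.3 in WT. None of these markers passed the fold change criterion defined below, and their part in the results was not tested.

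Type I interferons are secreted when a cell senses viral nucleic acid. They bind the receptor made of Ifnar1 and Ifnar2, whose kinases Jak1 and Tyk2 phosphorylate Stat2, and this joins Irf9 in a complex that binds interferon-stimulated response elements (ISRE) in the promoters of antiviral genes. Pluripotent cells are known for a weak interferon response, and they express some antiviral genes without interferon. None of the 23 listed interferon ligands was analysed here.

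The ISRE core was searched in RefSeq promoter sequence (250 bases before to 50 after each start, build GRCm38.p6) on both strands as GAAA followed by GAAA with 2 bases of any kind between, and it was found in 5 of the 9 members: Rsad2, Isg15, Stat2, Bst2 and Ifih1. Of 32851 promoters, 3.44% held it, as did 2.67% of the 12980 promoters of transcripts in the table. The core of the gamma-activated sequence, TTCNNNGAA, was found in Irf1 and Bst2 and in 8.30% of all promoters. In Bst2 it overlapped the first ISRE core. Neither was found in the window of Oasl2, Irf3 or Irf9. The windows below are those of the measured members with an ISRE core, Rsad2, Stat2 and Bst2. Of these only Rsad2, which was chosen by its difference, had genotypes that did not overlap, as in 10.1% of all transcripts in the deposited values. Whether the core has a part in that difference was not tested. Capitals mark the core, which starts with TTTC where it lies on the opposite strand, and 2 merged cores in Bst2. All are 5′ to 3′ on the strand of the gene.
Rsad2, chr12:26456553-26456582, minus strand: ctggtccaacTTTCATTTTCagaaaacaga
Stat2, chr10:128270266-128270295, plus strand: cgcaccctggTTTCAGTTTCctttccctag
Bst2, chr8:71537580-71537609, minus strand: attccagGAAAATGAAACTGAAAggctgca

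Rsad2 encodes viperin, an endoplasmic reticulum enzyme that makes a chain-terminating nucleotide and restricts many viruses. The gene is on chromosome 12 (26442746 to 26456452, minus strand, build GRCm38, as for all positions here). Its deposited values, given here and throughout in order of replicate from 1 to 4, were 51.0, 44.9, 43.7 and 74.8 for KO against 1, 21.2, 21.7 and 6.36 for WT. All KO values were above all WT values, with means of 53.6 ± 14.5 in KO and 12.6 ± 10.5 in WT (SD, n = 4). The log2 fold change was 2.23 with SE 0.69 on the log2(value + 1) scale. Less RNA per cell and fewer cells that express a transcript cannot be told apart in these bulk libraries.

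The deposited values had been corrected: a shift, equal for all libraries of a clone, had been taken off each transcript, and values under 1 were set to 1. The study's methods call this a batch correction without naming the variable, and since no day was shared by the clones, clone and groups of days cannot be told apart in it. It is called the clone correction here. Undoing this step gave whole reads. In the same order, Rsad2 had 36, 33, 30 and 68 reads in KO and 12, 3, 13 and 17 in WT. Scaled for depth, these were 35.1, 28.9, 27.7 and 90.7 normalised reads in KO and 10.1, 5.28, 5.75 and 22.3 in WT. The WT value of 1 was therefore made by the correction, since that library held 12 reads of Rsad2. The genotypes still did not overlap, and within each genotype the libraries of clone 1 were above those of clone E3.

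The ratio of KO to WT for Rsad2 was computed in each clone with the correction undone. In clone E3 the mean was 30.6 normalised reads in KO and 5.52 in WT, from 99 and 16 reads, a ratio of 5.54. In clone 1 it was 90.7 in KO and 16.2 in WT, from 68 and 29 reads, a ratio of 5.61. On days 3, 4 and 5, which each had 1 library of both genotypes, KO was higher by 5.48, 4.82 and 4.07 times. The WT library of day 3 held 3 reads, so the counting interval of that ratio was 1.72 to 27.9 (95%, exact conditional binomial, counting error only). In the deposited values of clone E3 alone, and so also without KO replicate 4, the fold was 2.11 (log2 1.08), so the additive correction had compressed the difference within that clone. The log2 fold change of clone 1 exceeded that of clone E3 by 0.29 with SE 0.68 (limma voom on recovered reads). The 95% interval ran from -1.31 to 1.90, so a difference between the clones of over 2-fold in either direction was within it. It is given without a test, because the deposited values that chose Rsad2 rested in part on the library of KO clone 1.

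Oasl2 encodes a 2′-5′ oligoadenylate synthetase-like protein with ubiquitin-like domains, which is induced by interferon. It is on chromosome 5 (114896936 to 114912234, plus strand). The deposited values were 20.2, 21.9, 22.5 and 1 in the KO libraries and 26.3, 32.5, 29.6 and 67.2 in the WT libraries. All KO values were below all WT values. The means were 16.4 ± 10.3 in KO and 38.9 ± 19.0 in WT (SD, n = 4). The log2 fold change of Oasl2 was -1.91 with SE 0.75.

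Here too the deposited value of 1 was made by the correction, while the high WT replicate 4 was higher before it. The reads of Oasl2 were 9, 12, 12 and 9 in KO and 45, 12, 41 and 60 in WT, which gave 8.77, 10.5, 11.1 and 12.002 normalised reads in KO and 37.7, 21.1, 18.1 and 78.6 in WT. KO replicate 4, deposited at 1, was the highest of the KO libraries before the correction. The 4 KO libraries then lay close together at 10.6 ± 1.36, and the WT libraries spread over 38.9 ± 27.8 (SD, n = 4). In clone E3, WT exceeded KO 1.94 times (19.6 against 10.1 normalised reads, from 53 and 33 reads). In clone 1 the ratio of WT to KO was 4.85 (58.2 against 12.002, from 105 and 9 reads). In the deposited values of clone E3 alone, and so also without KO replicate 4, the fold was 1.42 (log2 -0.51). On days 3, 4 and 5, WT exceeded KO 2.01, 1.64 and 6.55 times. With the correction undone, the log2 fold change over all libraries was -1.32 with SE 0.32. The log2 fold changes of the clones differed by -1.15 with SE 0.86 (clone 1 minus clone E3, limma voom, 95% interval -3.16 to 0.86), again without a test. With day as a block, the deposited difference of Oasl2 was -2.01 with SE 1.08 and a 95% interval of -4.95 to 0.94.

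**Figure D1:**
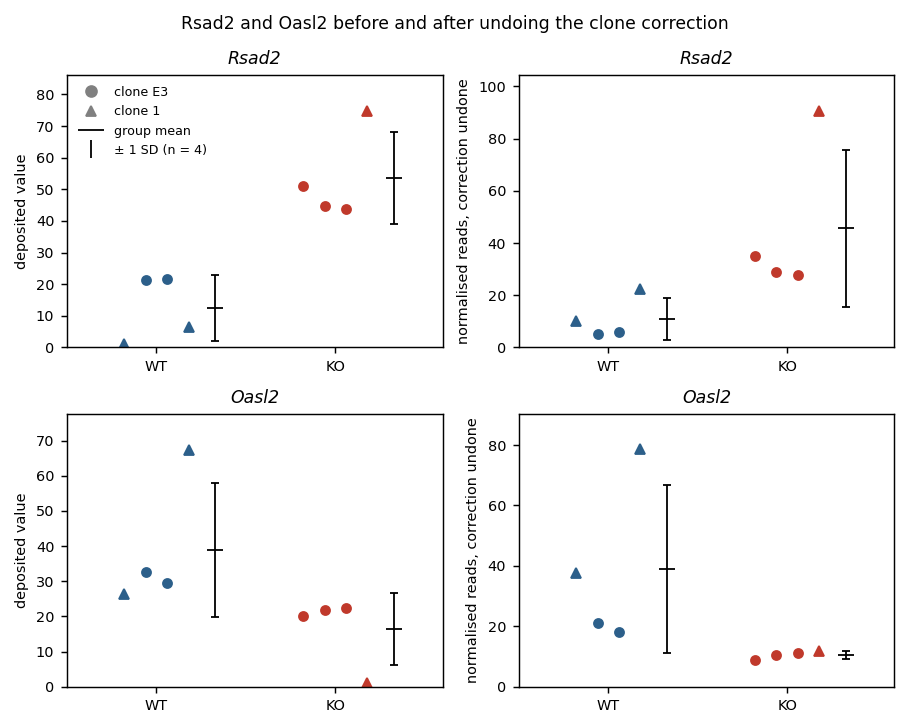
Deposited values (left) and normalised reads with the clone correction undone (right) of Rsad2 and Oasl2, by genotype. Each point is 1 library, circles are clone E3 and triangles clone 1, and the bar gives the mean ± 1 SD (n = 4). The deposited 1 of Rsad2 in WT stood at 10.1 and the deposited 1 of Oasl2 in KO at 12.002 before the correction.

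The third effector, Bst2 (tetherin, a membrane protein that holds budding virus particles on the cell surface), was the most abundant member. It is on chromosome 8 (71534255 to 71537456, minus strand). Deposited values were 1431, 1320, 1988 and 1738 in KO and 1467, 1314, 1972 and 1581 in WT. The genotypes overlapped throughout, and the libraries of day 4 were the highest of both. KO and WT differed by a log2 fold change of 0.04 with SE 0.20, a 95% interval of -0.43 to 0.50.

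Stat2 and Irf9 belong to the complex that binds the ISRE. Stat2 (chromosome 10, 128270559 to 128292849, plus strand) had deposited values of 812, 792, 728 and 682 in KO and 851, 724, 803 and 818 in WT. KO was at a log2 fold change of -0.09 with SE 0.12 (95% interval -0.36 to 0.19), and the genotypes overlapped. Irf9 (chromosome 14, 55603571 to 55610030, plus strand) had deposited values of 328, 292, 263 and 277 in KO and 216, 248, 230 and 288 in WT. It was higher in KO by 0.24 on the log2 scale with SE 0.14 (95% interval -0.09 to 0.58). WT replicate 4 reached into the KO range. With day as a block the Irf9 difference was 0.12 with SE 0.11.

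Irf3 is the factor that the sensing kinases activate to switch on the interferon beta gene. It is on chromosome 7 (44997648 to 45002848, plus strand). Deposited values of Irf3 were 384, 479, 476 and 481 in KO and 335, 428, 414 and 455 in WT. KO was higher by 0.16 on the log2 scale with SE 0.15 (95% interval -0.20 to 0.51).

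Irf1, an activator that is itself induced by interferon gamma, is on chromosome 11 (53770014 to 53778374, plus strand). Its deposited values were 618, 506, 444 and 374 in KO and 712, 634, 464 and 610 in WT. The log2 fold change of Irf1 was -0.33 with SE 0.21 (95% interval -0.83 to 0.16). The ratio of WT to KO with the correction undone was 1.05 in clone E3 and 1.73 in clone 1.

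Across the measured members, 2 of 7 passed the fold change criterion, an unadjusted p under 0.05 with a fold of at least 1.5 in the limma fit of all transcripts. These were Rsad2 and Oasl2, the genes chosen for that contrast, and 4.25% of the 13558 transcripts passed it. Nothing is read from this count. With day as a block Rsad2 passed it and Oasl2 did not, while with voom on recovered reads both passed, with and without the block. Both also had genotypes that did not overlap, as did 10.1% of all transcripts in the deposited values and 6.89% with the correction undone, and the other 5 members overlapped. The 5 others had log2 fold changes between -0.33 and 0.24. On the 3 days with a library of both genotypes, KO exceeded WT on 3 for Rsad2, Irf3 and Bst2, on 2 for Irf9, on 1 for Stat2 and on 0 for Irf1 and Oasl2.

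**Figure D2:**
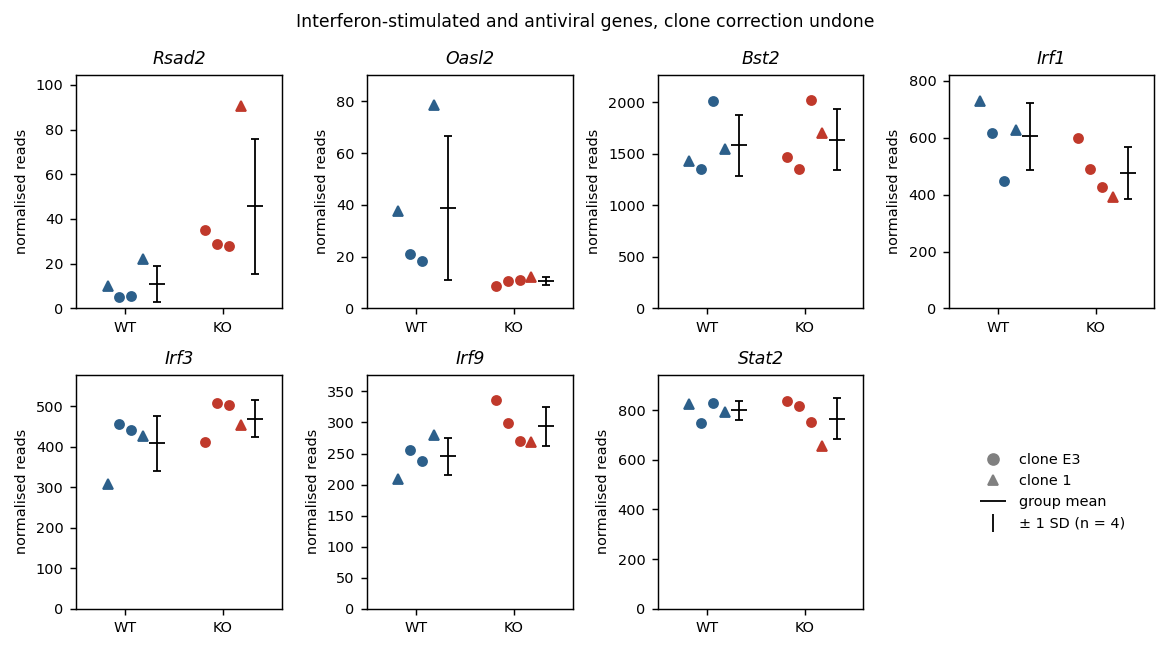
Normalised reads with the clone correction undone of the 7 measured members, by genotype. Each point is 1 library, circles are clone E3 and triangles clone 1, the bar gives the mean ± 1 SD (n = 4), and every axis starts at 0. The genotypes do not overlap in Rsad2 and Oasl2, as in 6.89% of all transcripts, and overlap in the 5 others.

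Levels were compared between genes as normalised reads per kilobase of exon (GENCODE M21), as means of the 8 libraries with the correction undone. Bst2 stood at 1784 per kilobase, above 98.4% of transcripts. Irf1 followed with 136.1, Stat2 with 132.0 and Irf3 with 127.5 per kilobase, at percentiles of 61.9 to 63.6. The ranges of these 3 overlapped, and Irf1 exceeded Stat2 in 4 of 8 libraries. Irf9 stood at 50.1 per kilobase, below Irf3 in 8 of 8 libraries. Rsad2 (6.51) and Oasl2 (3.88) were near the bottom of the table, at percentiles of 10.1 and 5.23, and Rsad2 exceeded Oasl2 in 4 of 8 libraries, the KO ones. The members that differed between the genotypes were thus also the ones with the fewest reads, 3 to 68 per library for both.

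The clone difference had been removed from the deposited table, so it was taken from recovered reads. Rsad2 was higher in clone 1 than in clone E3 by 1.47 on the log2 scale with SE 0.31, and Oasl2 by 1.09 with SE 0.38 (limma voom). These are descriptions without a test, because the correction for this difference shaped the deposited values by which both were chosen. The other 5 members differed between the clones by -0.23 to 0.12. The difference was tested in the 111 other pathway transcripts with reads: 0 passed an adjusted p under 0.05 in limma voom, and 17 had an unadjusted p under 0.05 (19 in limma on log2 values), where 7.70% of all transcripts did. The count of 17 changed in both directions when a library was left out. Among clone 1 libraries it was 5 without KO replicate 4, 7 without WT replicate 4 and 23 without WT replicate 1. Without a library of clone E3 it was 14 to 24. Of the 17, 10 were higher in clone 1 and 7 in clone E3. For the interaction of genotype and clone, 0 of the 111 passed after adjustment and 1 had an unadjusted p under 0.05 (5 in limma on log2 values), where 0.995% of all transcripts did. Over all 13474 transcripts with reads, 0% passed either test after adjustment. Day and clone cannot be told apart here.

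**Figure D3:**
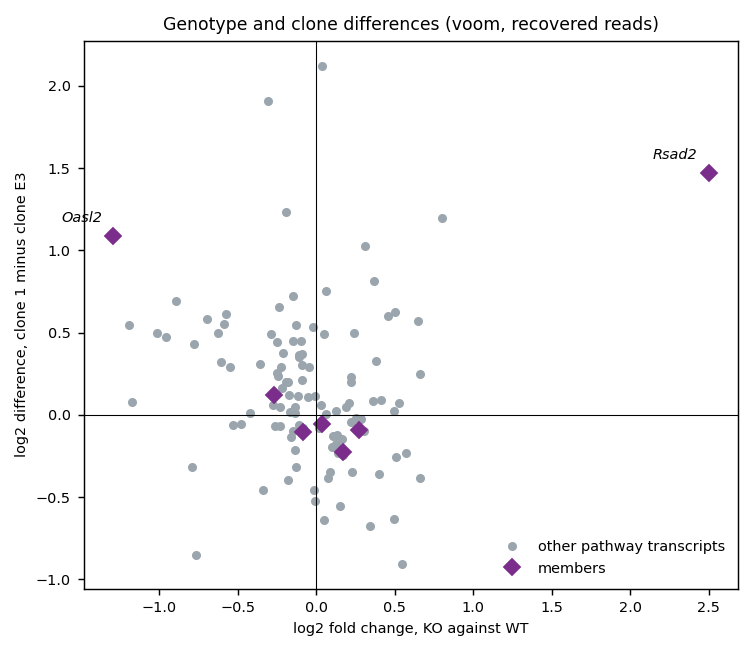
Log2 difference between the clones (vertical, clone 1 minus clone E3) against the log2 fold change of KO against WT (horizontal), both from limma voom on recovered reads, for members (diamonds) and other pathway transcripts (circles). Rsad2 lies at 2.50 and 1.47 and Oasl2 at -1.29 and 1.09, and the other 5 members lie near the origin.

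A pair of other interferon-inducible genes, picked out after their values were seen, had clone differences that did not pass the adjustment. Gbp2, a guanylate-binding protein of the interferon gamma response, was higher in clone 1 by 2.12 (unadjusted p = 0.00076 in limma voom) and Cxcl10, an interferon-induced chemokine, by 1.91 (unadjusted p = 0.00493). Cxcl10 averaged only 10.8 normalised reads. Tor3a, also picked out afterwards, went the other way, at -0.55 (unadjusted p = 0.000649 in limma voom). Of the list of interferon-stimulated effectors, 5 transcripts with an unadjusted p under 0.05 were higher in clone 1 and 6 were lower.

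The rest of the interferon pathway was described from lists of 180 symbols besides the members, of which 112 were measured. Past the fold change criterion, 7 of these 112 differed (6.25%, against 4.25% of all transcripts): 1 was higher in KO (1.76% of all transcripts were) and 6 were lower (2.49% were). None of them passed an adjusted p under 0.05 in the limma fit or in voom, where 13 and 9 had an unadjusted p under 0.05, nor did any other transcript of the table in these fits. The median log2 fold change of the 112 was -0.02, and that of all transcripts was 0.00 to 2 decimals. Without WT replicate 1 the count of 7 was 4, and without WT replicate 3 it was 14. In voom on recovered reads 5 passed the criterion (4.5%), all lower in KO, where 4.30% of all transcripts passed. With day as a block, in the 6 libraries of days 3 to 5, the count was 13 (2 higher and 11 lower, 11.6%), against 7.49% of all transcripts. Igtp and Lgals3bp were no longer among them. The excess of these counts over all transcripts was not tested, and nothing is read from it.

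The 6 lower transcripts were effectors or sensors. Parp10, a mono-ADP-ribosyltransferase, had 30.2, 23.7, 40.7 and 33.3 normalised reads in KO and 101, 49.3, 68.6 and 105 in WT. The genotypes did not overlap, and the log2 fold change of Parp10 was -1.19 with SE 0.30 (limma, adjusted p = 0.445). Zc3hav1 (the zinc-finger antiviral protein, which binds CpG-rich RNA) had 574, 676, 587 and 409 in KO and 1100, 918, 1024 and 667 in WT, with only 1 WT library inside the KO range. Its log2 fold change was -0.81 with SE 0.18 (limma, adjusted p = 0.416). Both passed the criterion in each of 26 alternative fits.

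Igtp and Irgm2, interferon-inducible GTPases that act on vacuoles with pathogens, were lower in KO by log2 fold changes of -1.09 (SE 0.34) and -1.14 (SE 0.48). Igtp did not overlap between the genotypes, with 43.9 to 65.3 normalised reads in KO and 70.8 to 173 in WT, and it passed the criterion in 21 of 26 alternatives. Irgm2 overlapped and passed in 9 of 26. Ifitm1, a membrane protein that blocks virus entry, fell by 0.73 on the log2 scale (SE 0.28) and passed in 15 of 26. The related Ifitm2 and Ifitm3 were the most abundant effectors per kilobase, at 4102 and 3019, and their log2 fold changes were 0.10 (SE 0.13) and 0.00 (SE 0.24). Lgals3bp, a secreted glycoprotein, had 5.85 to 14.03 normalised reads in KO and 11.1 to 22.6 in WT, and passed in 5 of 25. The only transcript higher in KO was Tap2, a subunit of the transporter that loads peptides for MHC class I, at 13.6 to 82.7 in KO and 10.6 to 39.4 in WT. Its log2 fold change was 0.86 with SE 0.34, and it passed in 8 of 25.

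**Figure D4:**
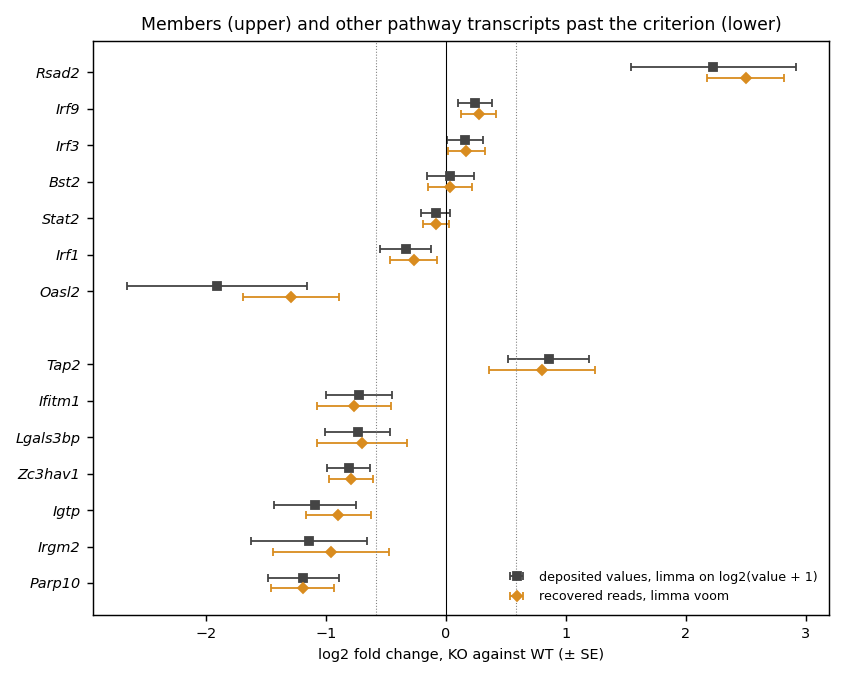
Log2 fold changes of KO against WT (± SE) of the 7 measured members and of the 7 other pathway transcripts past the criterion, from limma on the deposited values (squares) and from limma voom on recovered reads (diamonds). Dotted lines mark a fold of 1.5. Rsad2 lies at 2.23 and 2.50 and Oasl2 at -1.91 and -1.29, and the 7 others were shown because they passed.

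Upstream of the members, no measured receptor or signal transducer passed the criterion, which 4.25% of all transcripts did. Nothing is read from counts of 0 in lists this short, here and in the lists below. Of the receptor list 6 were measured and 0 passed. Ifnar1 had 722.1 to 790.8 normalised reads in KO and 674.5 to 863.1 in WT, and its log2 fold change was 0.03 with SE 0.12, while that of Ifnar2 was -0.02 with SE 0.28. Of the JAK-STAT list 13 were measured besides Stat2 and Irf9, and 0 passed. Socs3, an inhibitor of cytokine receptors that LIF induces, came nearest, with 2965, 3016, 3420 and 2426 normalised reads in KO and 1791, 1811, 2416 and 1946 in WT. It was higher in every KO library, at a log2 fold change of 0.53 with SE 0.15 (limma, adjusted p = 0.452), which is under the 1.5-fold limit. The log2 fold change of Pias2 was -0.21 with SE 0.17.

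Among sensors, 1 of 20 transcripts of the RNA list passed (Zc3hav1) and 0 of 10 of the DNA list, where 4.25% of all transcripts passed. With day as a block 2 of the RNA list and 1 of the DNA list passed, against 7.49% of all transcripts. In voom 1 of each passed, against 4.30%. Nothing is read from these counts. The most abundant of the RNA list per kilobase were Ddx3x, an RNA helicase, with a log2 fold change of -0.53 (SE 0.33), and Trim25, a ubiquitin ligase of RNA sensing, with -0.14 (SE 0.10). Those of the DNA list were Ddx41 with 0.12 (SE 0.10) and Pqbp1 with 0.06 (SE 0.14). Of the ISG15 conjugation list 4 were measured and 0 passed (1 with day as a block), and Arih1 had -0.17 (SE 0.16). Besides Irf1, Irf3 and Irf9, 3 factors of the IRF family were measured and 0 passed. Irf5, one of them, had a log2 fold change of -0.02 (SE 0.41).

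The OAS family synthesises or relates to 2′-5′ oligoadenylates, which activate RNase L. Apart from Oasl2, 8 of its transcripts were measured and 0 passed the criterion (4.25% of all transcripts did), with a median log2 fold change of 0.19. Oas1a, the most abundant per kilobase, had 403, 357, 135 and 121 normalised reads in KO and 215, 368, 116 and 139 in WT. The high libraries of Oas1a were KO replicates 1 and 2 and WT replicate 2, of clone E3 and days 2 and 3. KO replicate 3 and WT replicate 3, also of clone E3 but of day 4, had only 135 and 116. The group means of Oas1a differed by less than this spread (log2 fold change 0.23, SE 0.68). With day as a block its log2 fold change was 0.07 with SE 0.15. Oas1g had the same 3 high libraries, with 187, 170 and 180 normalised reads against 36.3 to 73.8 in the other 5. These genes are near copies of each other, and so in part are Oasl1 and Oasl2, so reads may have been split between them in the counting.

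**Figure D5:**
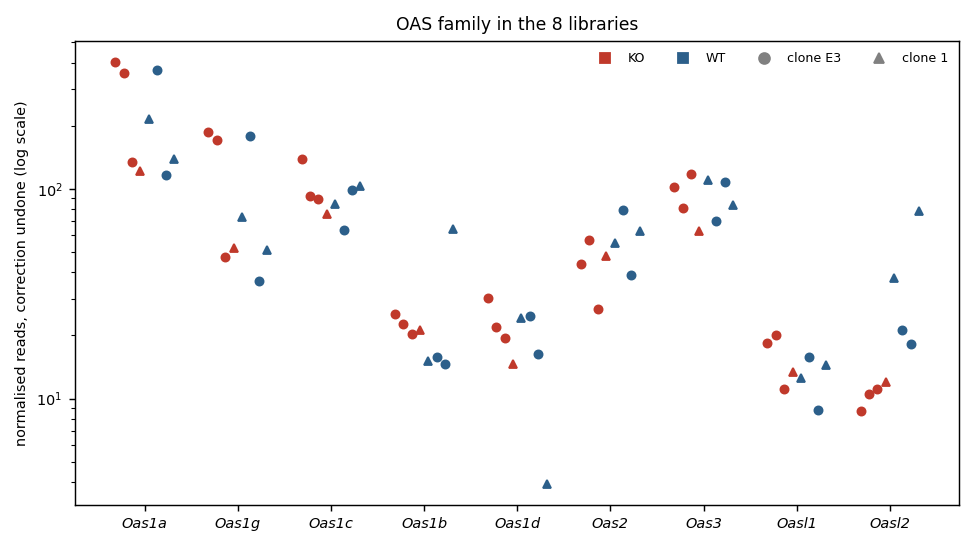
Normalised reads with the clone correction undone (log axis) of 9 OAS family transcripts in the 8 libraries, coloured by genotype, with circles for clone E3 and triangles for clone 1. For Oasl2 the KO libraries lie at 8.77 to 12.002 and the WT libraries at 18.1 to 78.6, while those of Oasl1 overlap.

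The neighbours of Rsad2 and Oasl2 on the chromosome were examined next. Cmpk2, a mitochondrial nucleotide kinase that interferon also induces, starts 12752 bases from Rsad2 and is read in the opposite direction. It had 34.1, 32.5, 37.0 and 20.003 normalised reads in KO and 15.1, 28.2, 21.7 and 17.0 in WT. In clone E3 the genotypes did not overlap, with KO above WT, and over all libraries KO was higher by 0.45 on the log2 scale with SE 0.15 (limma, adjusted p = 0.484), under the 1.5-fold limit. On the other side of Rsad2, Rnf144a had a log2 fold change of 0.04 with SE 0.16.

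Oasl1 lies 11006 bases from Oasl2 on the same strand. It had 11.1 to 20.2 normalised reads in KO and 8.85 to 15.9 in WT, and its log2 fold change was 0.26 with SE 0.26 (95% interval -0.36 to 0.88), opposite in sign to that of Oasl2. The other neighbour of Oasl2, 1500011B03Rik, had a log2 fold change of -0.28 with SE 0.13.

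The transcripts whose pattern over the 8 libraries was most like that of each gene were found by Pearson correlation of log2(normalised reads + 1) among 12343 transcripts with a mean of at least 20. For Rsad2 these were Tex13 (r = 0.98), Tubb2a (r = 0.97) and Emp1 (r = 0.94). Tex13 had 62.4, 49.1, 39.8 and 108 normalised reads in KO and 21.8, 14.1, 19.5 and 45.9 in WT. It so shared the high libraries of clone 1, and KO was above WT within each clone. Unlike Rsad2, its genotypes overlapped over all libraries. For Oasl2 they were Spg20 (r = 0.97), Cyth3 (r = 0.96) and Bach2 (r = 0.96). Spg20 had 346 to 368 normalised reads in KO and 412 to 526 in WT, and within WT its clone 1 libraries were the highest, as for Oasl2. The 8 points share their libraries, genotype and clone, and no p is given.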

How the data were processed

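mRNA-seq of 8 mES cell libraries was analysed. Per the study's methods, the authors made TruSeq poly-A libraries, which do not mark strand, ran CASAVA 1.8, aligned reads with TopHat2 and Bowtie2 2.2.1 to mm10, counted them per RefSeq transcript in Partek 6.6, normalised with DESeq2, corrected for batch, set values under 1 to 1 and dropped transcripts with low group means. Versions are from the submitters' processing notes. The deposited values are therefore a normalised signal after that correction, not counts. No per-sample column was left unused.

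The correction was worked out from the values. A linear model with genotype and clone left a clone term under 0.0001 of the mean in each of the 13350 transcripts above the floor in all libraries, so such a term, or one for the groups of days that go with clone, had been subtracted. Whole reads were solved for with a scale for each library and a shift for each transcript, and were unique for 13474 of 13558 transcripts (99.38%), which gave back 100% of their deposited values. In 3000 simulated transcripts all were recovered. Recovered reads cover the deposited transcripts only.

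Deposited values were fitted with limma 3.58.1 on log2(value + 1) and both genotype and clone in the model, a scale that understates changes of low transcripts. Recovered reads were fitted with limma voom and TMM factors. Benjamini-Hochberg adjustment of p-values ran over the whole table. In simulated data of 13474 transcripts, 200 of them altered by a log2 change of 2 at a dispersion of 0.1, the fold change criterion on the deposited scale called 199 of them and 568 others, the clone test 192 and the interaction test 14. Those 568 had no simulated genotype change, and in the data the same criterion called 576 of 13558. The dispersion was set and not estimated from the data, so the 568 do not measure false calls among the 576. The simulated libraries were independent, unlike the same-day pairs described next. Trim71 was compared by an exact permutation test. Alternatives were another pseudocount and filter, no clone term, a linear model, day as a block, recovered reads, clone E3 alone, and each library left out.

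The labels' days 3, 4 and 5 each pair 1 library of both genotypes. With the correction undone, deviations from the group means correlated at 0.54, 0.63 and 0.52 in these pairs, against a median of -0.18 over 13 pairs of different days. Such deviations cancel within a genotype, so high values in same-day pairs lower the others, and that median is no independent baseline. The pairs also share a clone.

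Positions and exon lengths came from GENCODE M21 (GRCm38), which matched 13456 symbols, and promoters from RefSeq (GRCm38.p6), which matched 9 of 9 members. The members and lists were chosen with earlier results of these data known. Named transcripts were the members, Trim71, pathway transcripts past the criterion, those with an adjusted p under 0.05 for clone or interaction (0), the neighbours of Rsad2 and Oasl2, the 3 most like each of these, and the 2 most abundant per kilobase of each list. Gbp2, Cxcl10 and Tor3a fall outside this rule and were chosen after their values were seen. A transcript that this rule names is not reported here.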

Additional observations from a re-analysis of the deposited data

Results flagged for a closer look

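In groups of 4, a library was singled out where its gap to the nearest other library was too large a share of the group's range by Dixon's 95% critical value. Of 14 groups (7 members in both genotypes) 3 were singled out. The 0.7 that chance gives holds for groups that were neither chosen by these values nor set to a floor. Oasl2 was chosen by its deposited values and has 1 at the floor, so nothing is read from the count. Oasl2 was low in KO replicate 4 at a deposited 1.0 and high in WT replicate 4 at 67.2, both of clone 1. Irf3 was low in KO replicate 1 at 384.3. With the clone correction undone, none of these 3 was singled out, and Rsad2 in KO replicate 4 was, at 90.7 normalised reads. That is the only KO library of clone 1.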

How the results depend on the processing

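The log2 fold change of Rsad2 kept its sign in 26 of 26 alternatives, from 1.08 to 2.66, and that of Oasl2 in 26 of 26, from -2.39 to -0.51. In the deposited values both rested on KO replicate 4: without it, or in clone E3 only, they were 1.08 and -0.51. With voom on recovered reads, leaving out each library in turn gave 2.21 to 2.66 for Rsad2 and -1.54 to -0.88 for Oasl2. Irf1, Irf3 and Irf9 kept their sign in 27 of 27 alternatives, Stat2 in 22 and Bst2 in 18. The count of 7 pathway transcripts past the criterion was 3 in a linear model, 13 with a replicate block by day, 16 with voom and that block, and 3 in clone E3 only with voom. Leaving out each library gave 4 to 14, with the extremes without WT replicate 1 (4) and WT replicate 3 (14). In voom it gave 3 to 12, with 3 without KO replicate 4, 4 without WT replicates 1 or 4 and 12 without WT replicate 3. The cause was not tested. More were lower than higher in 25 of 26 alternatives, and the exception, voom without WT replicate 2, had 4 of each. These alternatives reuse the same 8 libraries. Over all transcripts, too, more were lower (2.49%) than higher (1.76%) in the fit as reported, so nothing is read from the direction. Counts of 0 for clone and interaction held in each alternative run, and the interaction without KO replicate 4 had no library in 1 cell. Trim71 was lower and past an unadjusted p of 0.05 in 26 of 26. On the deposited values, the block by day also ended the calls of Igtp and Lgals3bp, and with voom and the block Igtp passed. Voom within clone E3 and voom without each library were chosen after seeing the data. Rsad2 and Oasl2 rest on 3 to 68 reads per library, and clone 1 has 1 KO library.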
